A study of Mus musculus with 4 samples.

Results

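The 43 genes described here are 23 genes of the ATF4 amino acid response (ATF4 itself, other transcription factors of the response, stress effectors, and enzymes and transporters for amino acids) and 20 genes for cytosolic aminoacyl-tRNA synthetases. They were chosen by name, with earlier results of these data known, and all 43 were found among the 50600 genes of each table. Their RNA was measured in 4 libraries of mouse T helper 17 (Th17) cells, the CD4-positive helper cells known for secreting interleukin 17. These were primary cells of strain C57BL/6NJ. The labels link a protocol for CD4 T cell differentiation, and the file headers record a time of 72 hr. All 4 libraries, replicates 1 to 4, share strain, cell type and time, so they form 1 group and nothing treated or untreated to set against it. All 4 biosamples carry the same donor identifier. The labels record neither age nor sex, and do not say whether the samples came from separate animals. The p-values below therefore measure only the spread between these samples. A Y-linked transcript described at the end was present in replicates 1 and 2 and nearly absent from replicates 3 and 4, so the 4 samples were not all from the same animal.

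ATF4 is a transcription factor of the integrated stress response. When amino acids run short, uncharged tRNA activates the kinase GCN2, which phosphorylates the alpha subunit of the initiation factor eIF2. General protein synthesis then slows, while the ATF4 mRNA is translated more. ATF4 raises genes for amino acid uptake and synthesis and many of the tRNA synthetases, which load each amino acid onto its tRNA. Activated T cells grow fast and take up large amounts of amino acids. The files hold RNA only, so neither ATF4 protein nor eIF2 phosphorylation was measured.

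Total counts were 37507204 in replicate 2 and 33123029 to 37746767 in the other 3 libraries. Replicate 2 stood apart from them. A chi-square test of counts between libraries gave 44.6 to 49.4 per degree of freedom for the pairs with replicate 2 and 4.44 to 6.61 for the other 3 pairs. All 6 pan-T cell markers were at 1 TPM (a count scaled for gene length and library total) or more in every library, with a summed level of 2111 TPM in replicate 2 and 2212 to 2295 TPM in the others. The 6 Th17 markers summed to 1415 TPM in replicate 2, against 5424 to 6188 TPM in the others. Of these, 5 were called lower in replicate 2, Il17a and Il17f among them. Values without replicate 2 are given below where they bear on a count or a spread.

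ATF4 acts with C/EBP proteins at a composite DNA element whose core can be written TGATGNAA, with N for any base. This motif was sought on both strands of RefSeq promoter windows of build GRCm38.p6, each reaching from 250 bases before to 50 bases after a gene's start. A window was at hand for 33 of the 43 genes, and 10 of these held a match (30.3%). Among all genes of the table, 1219 of 27025 held one (4.51%). By role, 5 of 21 network genes (23.8%) and 5 of 12 synthetases (41.7%) held it. A match is a string of letters and was not tested as a binding site. The 7 stretches below lie before the RefSeq start of their gene. They show the match in its surroundings, on the gene's strand from 5′ to 3′. Capitals mark the match, which reads as the reverse complement of the motif where it lies on the opposite strand. The chromosome position and strand follow each name.
Asns (chr6:7693210-7693258, minus strand): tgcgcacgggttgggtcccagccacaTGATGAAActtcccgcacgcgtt
Slc7a11 (chr3:50443646-50443705, minus strand): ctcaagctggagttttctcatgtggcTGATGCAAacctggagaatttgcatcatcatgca
Pycr1 (chr11:120643818-120643877, minus strand): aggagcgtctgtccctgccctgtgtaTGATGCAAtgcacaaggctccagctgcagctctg
Chac1 (chr2:119351023-119351082, plus strand): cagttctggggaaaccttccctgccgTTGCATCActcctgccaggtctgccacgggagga
Tars (chr15:11399659-11399699, minus strand): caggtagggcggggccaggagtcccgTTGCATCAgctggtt
Gars (chr6:55037945-55038000, plus strand): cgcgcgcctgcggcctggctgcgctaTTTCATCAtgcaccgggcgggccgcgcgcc
Aars (chr8:111033704-111033763, plus strand): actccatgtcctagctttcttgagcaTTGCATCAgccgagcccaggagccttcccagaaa

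Counted from the gene's start, the match begins at position -23 in Asns, -66 in Slc7a11, -103 in Pycr1, -193 in Chac1, -15 in Tars, -30 in Gars and -112 in Aars. Slc7a11 holds a second match at -47, on the opposite strand, and Aars another just after its start. Trib3, Yars and Iars held a match only after the RefSeq start. The annotation used for the counts places some starts elsewhere. By its outermost exon, the Asns and Aars matches shown lie after the start, and the Trib3 match lies before it. The Trib3 match is shown because Trib3 differed most between libraries.
Trib3 (chr2:152344028-152344057, minus strand): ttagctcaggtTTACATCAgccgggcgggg

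Genes with a match ranged in mean level from 491 TPM for Gars to 1.11 TPM for Slc7a11. Promoter windows for Cars, Vars, Hars, Slc1a5, Wars, Slc7a5, Nars, Rars, Mars and Lars were not analysed here.

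Nearly all of the 43 genes were active at high levels in these Th17 cells. A level of at least 1 TPM in every library was reached by 42 of the 43, and the same 42 were at 5 TPM or more in every library. For comparison, 70.1% of the 17337 genes with at least 10 counts reached 1 TPM in every library. The median gene of the 43 stood at percentile 93.0 of those 17337 genes by mean level. The exception at 1 TPM was Slc7a11, the cystine importer, at 1.09 TPM in replicate 2 and 1.20, 1.14 and 0.994 TPM in replicates 1, 3 and 4. Leaving out replicate 2 also gave 42 genes.

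**Figure D1:**
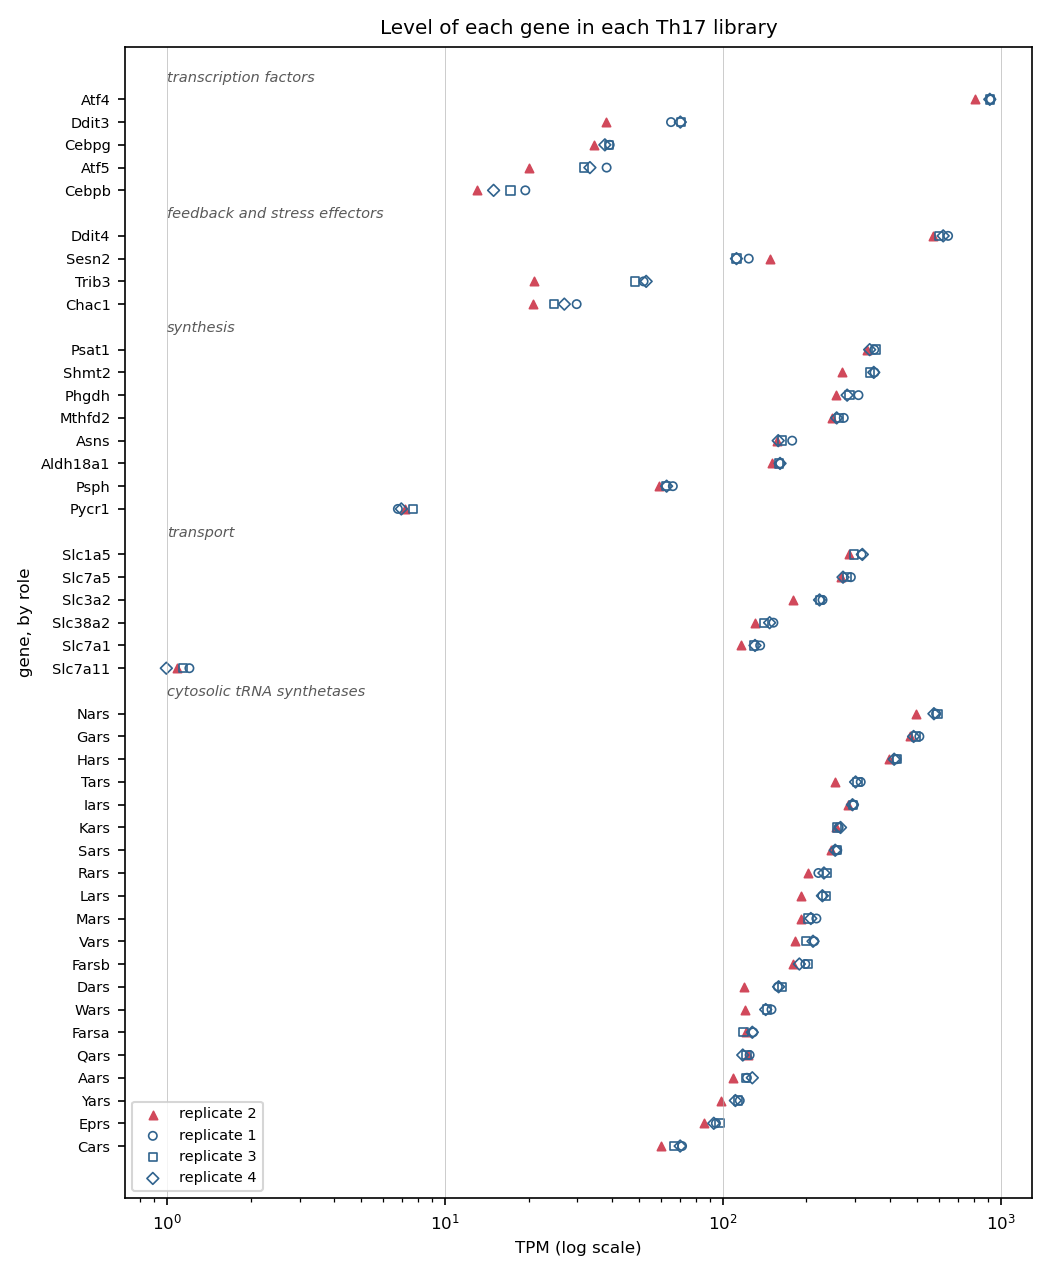
Level of each of the 43 genes in TPM (log axis), with 1 symbol per library and genes grouped by role and ordered by mean level; the filled triangle is replicate 2. Atf4 lies near 890 TPM and Slc7a11 near 1.11 TPM, and replicate 2 is the lowest library for 38 genes and the highest for Sesn2.

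Atf4 was the most abundant of the 43, at percentile 99.3 of the genes tested. It had 808 TPM in replicate 2 and 921, 917 and 914 TPM in replicates 1, 3 and 4. Replicates 1, 3 and 4 varied by 0.415% (CV), the smallest spread of any of the 43 genes over those libraries. Ddit4, which restrains the growth kinase mTORC1, came next in the network, with 572 TPM in replicate 2 and 647, 599 and 621 TPM in replicates 1, 3 and 4. The other transcription factors of the response were far less abundant than Atf4, and their median with Atf4 included was 37.5 TPM. Cebpb, for a C/EBP protein, had 13.1 TPM in replicate 2 and 19.5, 17.2 and 15.0 TPM in replicates 1, 3 and 4.

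Enzymes of amino acid synthesis had a median of 212 TPM, and transporters 178 TPM. All enzymes of serine synthesis were present, with Psat1 at 344 ± 12.0 TPM, Phgdh at 282 ± 21.7 TPM and Psph at 62.6 ± 2.83 TPM (SD, n = 4). Asns, which makes asparagine, averaged 164 ± 9.40 TPM (SD, n = 4). Proline synthesis was uneven: Aldh18a1, the entry enzyme from glutamate, averaged 158 ± 5.08 TPM, and the closing enzyme Pycr1 averaged 7.14 ± 0.384 TPM (SD, n = 4). Pycr1 had 7.17 TPM in replicate 2 and 6.77, 7.67 and 6.97 TPM in replicates 1, 3 and 4, so the libraries overlapped. Among transporters, the glutamine carrier Slc1a5 averaged 304 ± 16.2 TPM and the cationic amino acid carrier Slc7a1 averaged 128 ± 8.31 TPM (SD, n = 4). The network spanned a ratio of 804 between its highest and its lowest gene, and 14 of its 22 neighbours in the order of mean level overlapped in their ranges over libraries.

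The synthetases formed a tighter set, with a ratio of 8.39 between the highest and the lowest. Nars (asparagine) led, with 496 TPM in replicate 2 and 586, 592 and 575 TPM in replicates 1, 3 and 4. Gars (glycine) followed, with 472 TPM in replicate 2 and 510, 497 and 486 TPM in replicates 1, 3 and 4. Hars (histidine) had 396 TPM in replicate 2 and 422, 424 and 414 TPM in replicates 1, 3 and 4. The ranges of Nars and Gars overlapped because of replicate 2, though Nars exceeded Gars within every library. Hars lay below Gars in every library. From there the order ran Tars, Iars, Kars, Sars, Rars, Lars, Mars, Vars, Farsb, Dars, Wars, Farsa, Qars, Aars, Yars, Eprs and Cars. Tars (threonine) averaged 293 ± 26.7 TPM and Cars (cysteine), the lowest, 67.1 ± 5.19 TPM (SD, n = 4). Ranges of neighbours over libraries overlapped in 12 of 19 cases and were separate in 7. These ranges do not compare 2 genes within the same library, so an overlap does not show that their order changed.

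Phenylalanyl-tRNA synthetase is built from an alpha subunit (Farsa) and a beta subunit (Farsb) in equal number. Farsa had 122 TPM in replicate 2 and 129, 119 and 128 TPM in replicates 1, 3 and 4. Farsb had 179 TPM in replicate 2 and 198, 203 and 189 TPM in replicates 1, 3 and 4. In TPM the beta mRNA was higher in every library, with a Farsb to Farsa ratio of 1.55 ± 0.113 (SD, n = 4). That direction rests on the summed exon length used for TPM, 4538 bases for Farsa and 2620 for Farsb. In counts Farsa was higher in every library, at 5662 to 6489 against 5145 to 5592 for Farsb. Of the 20 synthetase genes, 8 encode enzymes of the multisynthetase complex, and their median level in TPM was 191 in replicate 2 and 218 to 219 in the others. The 12 outside it had medians of 180 in replicate 2 and 200 to 206 in the others. Of the scaffold genes, Eef1e1 was nearly constant, at 425 TPM in replicate 2 and 425, 421 and 424 TPM in replicates 1, 3 and 4.

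Mitochondria use their own synthetases, encoded by separate nuclear genes for most amino acids. The cytosolic gene was the higher of the pair in every library for 16 of 17 pairs, with a median ratio of 7.08. The ratio was highest for Nars over Nars2, at 42.2 ± 3.22 (SD, n = 4). Leucine was the exception: the ratio of Lars to Lars2 was 0.941 in replicate 2 and 1.05, 1.21 and 1.26 in replicates 1, 3 and 4. Lars2 had 203 TPM in replicate 2 and 217, 194 and 182 TPM in replicates 1, 3 and 4, and the median of the 17 mitochondrial genes was 28.2 TPM. The next lowest ratio was that of Yars to Yars2, at 2.22 ± 0.105 (SD, n = 4).

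**Figure D2:**
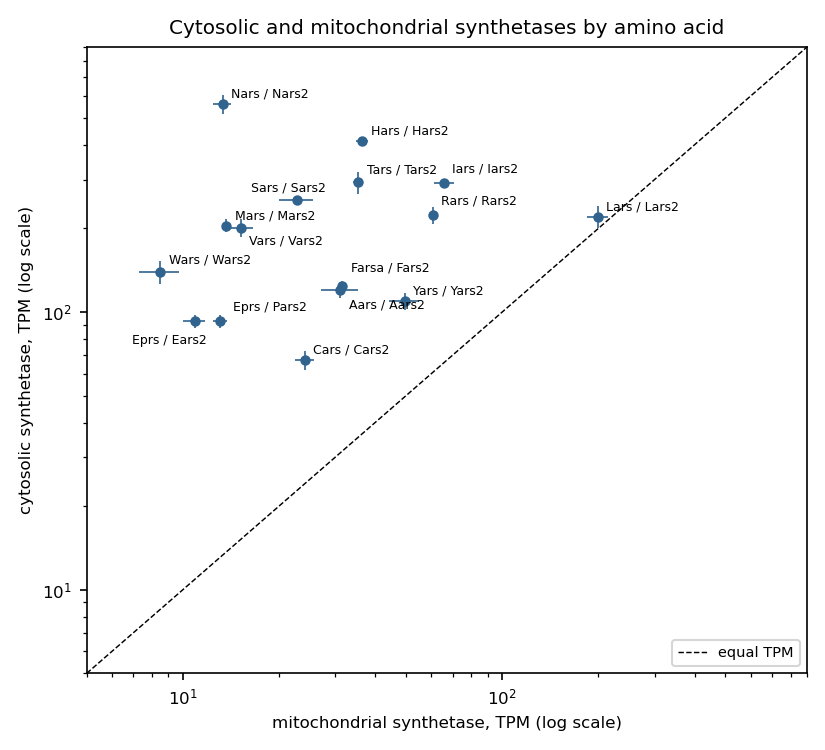
Mean TPM of each cytosolic synthetase (vertical, log axis) against the mitochondrial synthetase for the same amino acid (horizontal, log axis) over 4 libraries, with SD bars; Eprs, which serves glutamate and proline, is drawn with both of its partners. Of the 17 pairs 16 are drawn, and all 16 points lie above the dashed line of equal TPM; Lars and Lars2 lie nearest to it, with a ratio that ran from 0.941 to 1.26 over libraries.

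With 1 group, the comparison that the labels allow is of each library with the other 3, which compares libraries and not conditions. The lone library was assumed to vary like the others. For replicates 1, 3 and 4 the others included replicate 2, so a lack of calls there does not show that these libraries agree. In edgeR's quasi-likelihood test, replicates 1, 3 and 4 each had 0 of 17337 genes called (0%), and none of the 43 genes passed even an unadjusted p of 0.05. Over all genes, 180, 272 and 146 passed that unadjusted threshold in replicates 1, 3 and 4, and DESeq2 called 2, 15 and 3 genes, none of them among the 43. With replicate 2 left out, edgeR called 101, 102 and 38 genes in replicates 1, 3 and 4, again none among the 43. In replicate 2, 3664 of 17337 genes were called (21.1%), with 1892 higher (10.9%) and 1772 lower (10.2%).

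In replicate 2, 12 of the 43 genes were called, 11 lower and 1 higher. The genes called lower were Trib3, Ddit3, Atf5, Shmt2 and Slc3a2 of the network and the synthetases Dars, Lars, Wars, Tars, Nars and Cars, and the gene called higher was Sesn2. Because most of the 43 are abundant, genes with a mean of at least 10 TPM give the nearer background: of 8809 such genes, 14% were called lower and 16.5% higher in replicate 2. The log2 change had a median of -0.11 over the 43 genes and -0.01 over all genes tested, and 37 of the 43 had a negative value. The summed level of the 43 genes was 8311 TPM in replicate 2 and 9189 to 9441 TPM in the others. The TPM scale itself sat slightly lower in replicate 2, by a median of -0.05 on the log2 scale over genes with at least 10 TPM and -0.17 over the 43. The tested changes use TMM scaling, which removes that shift. Between 11 and 15 of the 43 were called lower under the 9 other settings tried, and Sesn2 remained the gene called higher in each.

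**Figure D3:**
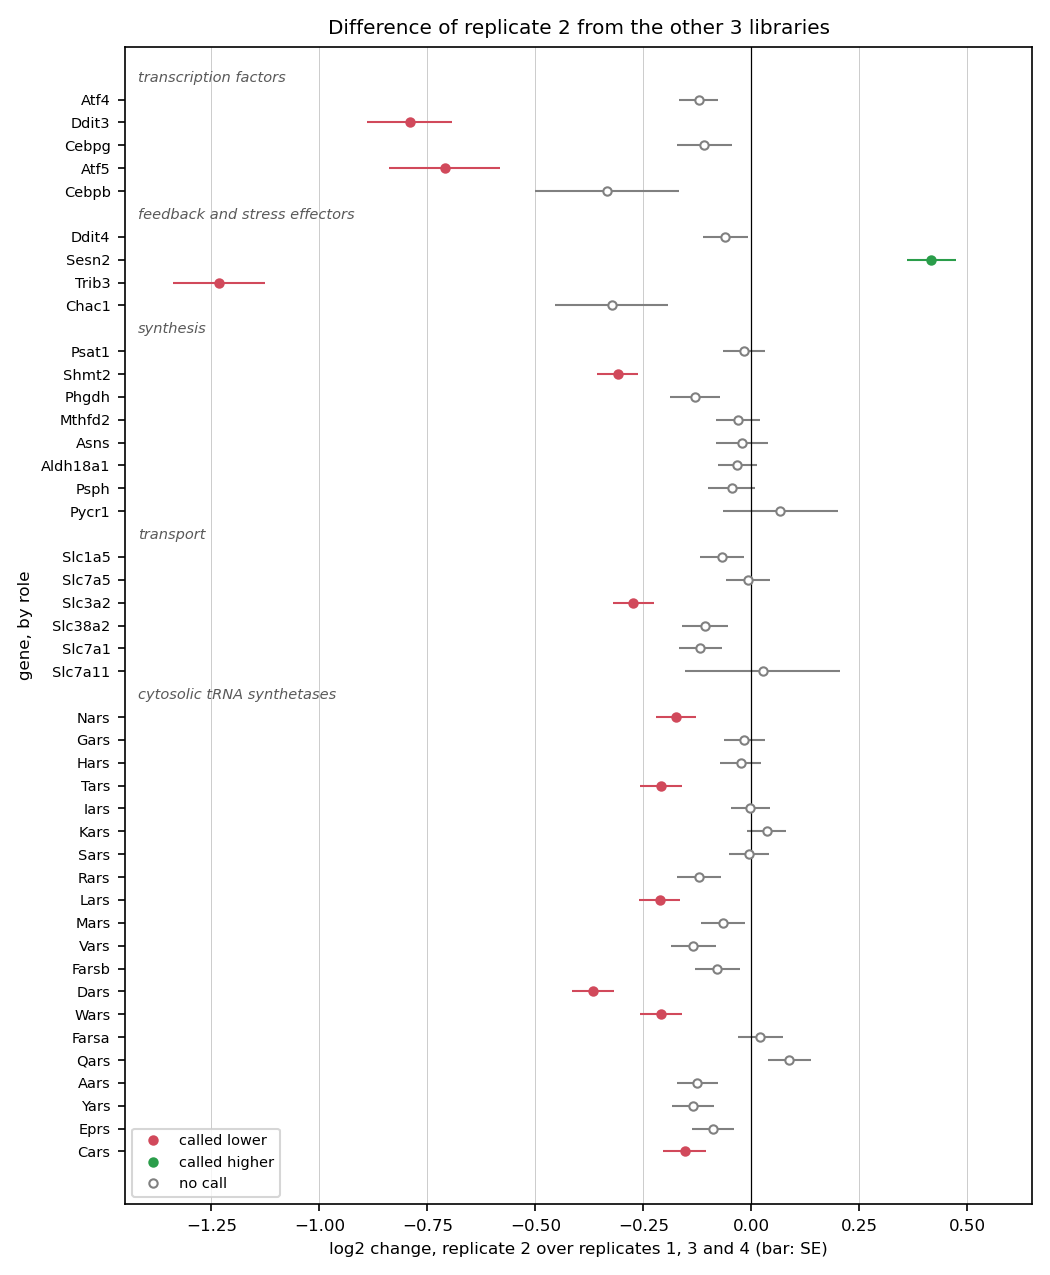
The log2 change of each of the 43 genes in replicate 2 over replicates 1, 3 and 4 on TMM-scaled counts, with SE bars; filled points passed an adjusted p of 0.05. The largest change is that of Trib3 at -1.23, and Sesn2 at 0.42 is the filled point to the right of 0.

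Among the transcription factors, 2 of 5 were called lower and 3 were not called. Ddit3, the gene for CHOP, which drives death under prolonged stress, had 38.03 TPM in replicate 2 and 65.1, 70.6 and 70.3 TPM in replicates 1, 3 and 4. Replicate 2 lay below all others, by -0.79 ± 0.10 (log2 change ± SE, adjusted p = 7.3e-05). Atf5, a factor activated along with ATF4, had 20.1 TPM in replicate 2 and 38.2, 31.6 and 33.3 TPM in replicates 1, 3 and 4. Its change was -0.71 ± 0.13 (adjusted p = 0.00134). Atf4 itself had a log2 value of -0.12 ± 0.04 and was not called (adjusted p = 0.0763), though DESeq2 (adjusted p = 0.0257) and scaling by library size alone (adjusted p = 0.0314) called it lower. Cebpb and Cebpg were not called, at -0.33 ± 0.17 and -0.11 ± 0.06.

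The feedback and stress effectors split, with 1 of 4 lower, 1 higher and 2 not called. Trib3, a pseudokinase that ATF4 induces and that dampens ATF4 in return, had 20.8 TPM in replicate 2 and 51.9, 48.4 and 53.0 TPM in replicates 1, 3 and 4. The libraries did not overlap, and the change of -1.23 ± 0.11 was the largest among the 43 genes (adjusted p = 2.92e-06). Sesn2, for sestrin 2, an inhibitor of mTORC1 that senses leucine, went the other way. It had 148 TPM in replicate 2 and 124, 112 and 112 TPM in replicates 1, 3 and 4, a change of 0.42 ± 0.06 (adjusted p = 0.000175). Chac1, a glutathione-degrading enzyme, had 20.8 TPM in replicate 2 and 29.8, 24.7 and 26.9 TPM in replicates 1, 3 and 4 and was not called (adjusted p = 0.104). Ddit4 was not called either, at -0.06 ± 0.05.

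Ratios to Atf4 were taken within each library. The ratio of Trib3 to Atf4 in TPM was 0.0258 in replicate 2 and 0.0563, 0.0528 and 0.0580 in replicates 1, 3 and 4. That of Ddit3 to Atf4 was 0.0471 in replicate 2 and 0.0707, 0.0770 and 0.0770 in the others. The ratio of Asns to Atf4 was 0.195 in replicate 2 and 0.193, 0.178 and 0.173 in the others, where replicate 2 lay close to replicate 1.

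Of the 8 enzymes of synthesis, 1 was called lower in replicate 2, and the median log2 value of the group was -0.03. Shmt2, the mitochondrial enzyme that turns serine into glycine and a one-carbon unit, had 268 TPM in replicate 2 and 352, 338 and 349 TPM in replicates 1, 3 and 4. Its change was -0.31 ± 0.05 (adjusted p = 0.000427). Asns, Psat1, Psph, Mthfd2 and Aldh18a1 lay between -0.05 and -0.02, Phgdh was at -0.13 ± 0.06 and Pycr1 at 0.07 ± 0.13, all without a call. Mthfd2, the step after Shmt2 in mitochondria, therefore stood at a ratio to Shmt2 of 0.924 in replicate 2 and 0.775, 0.777 and 0.735 in replicates 1, 3 and 4.

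Of the transporters, 1 of 6 was called lower. Slc3a2, the CD98 heavy chain, had 178 TPM in replicate 2 and 229, 223 and 223 TPM in replicates 1, 3 and 4. Its change was -0.27 ± 0.05 (adjusted p = 0.00101). Its partner Slc7a5, the light chain that imports leucine and other large neutral amino acids, had 267 TPM in replicate 2 and 289, 280 and 271 TPM in replicates 1, 3 and 4. It was not called, at -0.01 ± 0.05. The ratio of heavy to light chain mRNA was 0.668 in replicate 2 and 0.791, 0.796 and 0.823 in replicates 1, 3 and 4. Slc38a2, Slc1a5 and Slc7a1 lay between -0.12 and -0.07, and Slc7a11 at 0.03 ± 0.18, without a call.

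Of the 20 synthetases, 6 were called lower in replicate 2, 0 higher and 14 were not called, with 17 of the 20 at a negative value. At an unadjusted p of 0.05 edgeR gave 10 lower and 0 higher, and DESeq2 called 7 lower and 0 higher. Dars (aspartate) changed most, with 119 TPM in replicate 2 and 158, 163 and 159 TPM in replicates 1, 3 and 4. Its change was -0.37 ± 0.05 (adjusted p = 0.000107). Lars (leucine) had 191 TPM in replicate 2 and 228, 235 and 228 TPM in the others, a change of -0.21 ± 0.05 (adjusted p = 0.006). These 2 were the enzymes of the multisynthetase complex that were called. Of its 3 scaffold genes, Aimp2 was called lower as well, with 152 TPM in replicate 2 and 179, 189 and 197 TPM in replicates 1, 3 and 4 (-0.24 ± 0.06). Wars (tryptophan) had 121 TPM in replicate 2 and 150, 144 and 143 TPM in the others, a change of -0.21 ± 0.05 (adjusted p = 0.0075).

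Tars (threonine), which carries the motif shown above, had 254 TPM in replicate 2 and 314, 305 and 301 TPM in the others, a change of -0.21 ± 0.05 (adjusted p = 0.00795). Nars, with the values given above, changed by -0.17 ± 0.05 (adjusted p = 0.0172). Cars had 59.8 TPM in replicate 2 and 71.4, 66.8 and 70.2 TPM in the others. Its change of -0.15 ± 0.05 was the closest to the threshold (adjusted p = 0.0418), and the call was lost in DESeq2 (adjusted p = 0.0795) and without replicate 1 (adjusted p = 0.0886). In all 6 genes replicate 2 lay below every other library, by 13.9% to 25.7% of their mean TPM.

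The other 14 synthetases lay between -0.13 and 0.09. Iars, Sars at -0.01 ± 0.05 and Gars at -0.02 ± 0.05 were nearest to 0, and Qars had the highest value, at 0.09 ± 0.05. Aars, Rars, Vars and Yars, at -0.12 to -0.13, were called under some other settings. Aars shares 14.3% of its exon bases with another gene on the same strand, where reads may have been left uncounted. Genes with a promoter match were called lower in 2 of 10 cases and genes with a window but no match in 5 of 23.

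Without replicate 2 the 43 genes were steady. The median CV over replicates 1, 3 and 4 was 2.98% for the 43 and 3.598% for genes with at least 10 TPM, and with replicate 2 included it was 6.48% and 6.37%. Replicate 2 was the lowest library for 38 of the 43 genes, whereas it was the lowest for 49.3% of genes with at least 10 TPM.

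Further genes of the pathway were taken from lists outside the 43. Counts called in these small lists are to be read beside the shares of all genes called in replicate 2, given above. A list near those shares does not differ from genes at large. Of 20 other genes known as ATF4 targets, 19 could be tested, and 12 were called lower and 1 higher in replicate 2, with a median change of -0.51. Lonp1, a mitochondrial protease and the most abundant of them, had 260 TPM in replicate 2 and 360, 352 and 357 TPM in replicates 1, 3 and 4 (-0.39 ± 0.05). Vldlr, a lipoprotein receptor, had 2.75 TPM in replicate 2 and 8.82, 9.08 and 8.98 TPM in the others (-1.64 ± 0.11). Nupr1, a stress-induced nuclear protein, had 2.64 TPM in replicate 2 and 8.27, 8.52 and 8.28 TPM in the others (-1.60 ± 0.18).

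The pair of enzymes that turn homocysteine into cysteine was picked out after its values were seen. Cth, the second step, had 55.3 TPM in replicate 2 and 144, 142 and 133.7 TPM in replicates 1, 3 and 4 (-1.28 ± 0.06, adjusted p = 5.52e-09). Cbs, the first step, had 11.02 TPM in replicate 2 and 6.19, 6.63 and 6.97 TPM in the others (0.80 ± 0.13, adjusted p = 0.000608). Their ratio, Cth over Cbs, was 5.02 in replicate 2 and 23.3, 21.3 and 19.2 in replicates 1, 3 and 4.

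**Figure D4:**
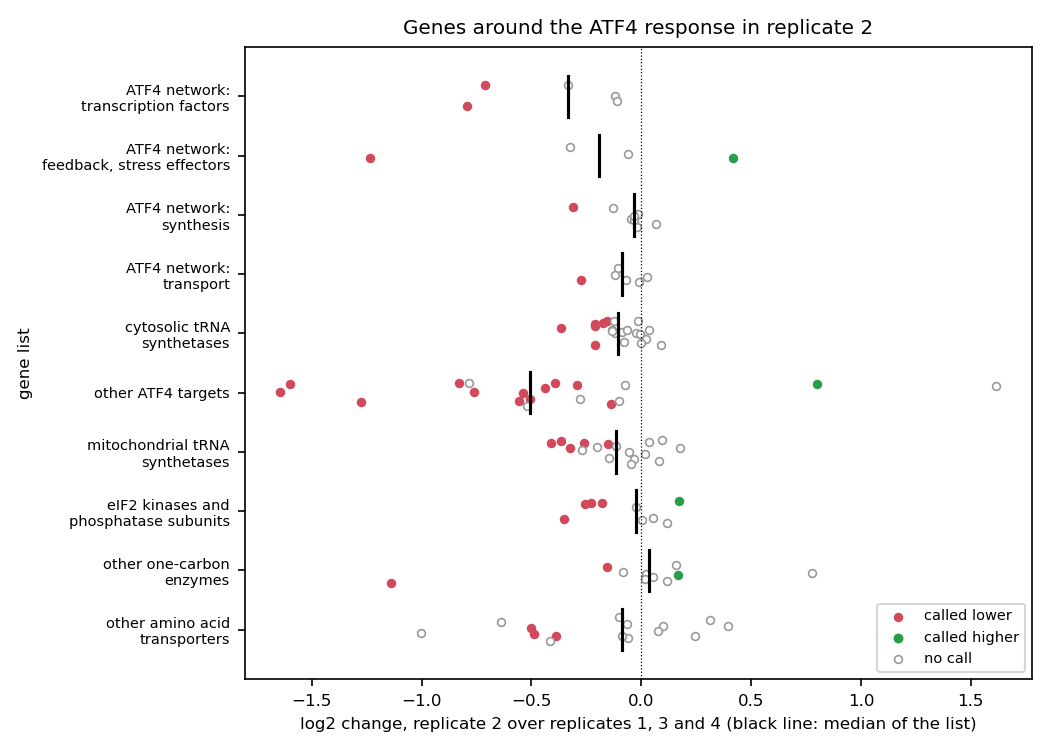
The log2 change in replicate 2 over replicates 1, 3 and 4 of every tested gene in the 5 role groups and in 5 further lists, with a black line at the median of each list; filled points passed an adjusted p of 0.05. The other ATF4 targets have the lowest median, at -0.51, and include 1 gene called higher, Cbs.

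Among 17 mitochondrial synthetases, 5 were called lower and 0 higher, with 1 higher at an unadjusted p of 0.05 and 0 higher in DESeq2. Lars2, the most abundant, was at 0.10 ± 0.08 without a call. Of the 9 eIF2 kinases and phosphatase subunits, 4 were called lower and 1 higher. The most abundant, the phosphatase catalytic subunit Ppp1ca, was not called at 0.12 ± 0.04. Eif2ak1, for the heme-regulated kinase, was the one called higher, at 0.17 ± 0.05, and lost its call under 3 other settings. Eif2ak4, the gene for GCN2, was called lower, at -0.26 ± 0.08. Ppp1r15a, the stress-induced phosphatase subunit GADD34 and itself an ATF4 target, changed most, with 41.4 TPM in replicate 2 and 56.1, 55.0 and 54.1 TPM in replicates 1, 3 and 4 (-0.35 ± 0.08). Of 8 subunits of eIF2 and its exchange factor eIF2B, 0 were called by edgeR or DESeq2, 2 were lower at an unadjusted p of 0.05, and 3 were called under some other settings, among them Eif2s3x, which is described last.

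The folate cycle runs in mitochondria and in the cytosol. Of 10 other one-carbon enzymes, 2 were called lower and 1 higher in replicate 2. Mthfd1, the most abundant and cytosolic, was the one called higher, with 195 TPM in replicate 2 and 179, 184 and 180 TPM in replicates 1, 3 and 4 (0.17 ± 0.05). Gldc, of the mitochondrial glycine cleavage system, was called lower, at -1.14 ± 0.22. After these values were seen, the enzymes were also set out by compartment. Of 5 mitochondrial folate enzymes, Shmt2, Mthfd1l and Aldh1l2 were called lower and Mthfd2 and Mthfd2l were not called. Mthfd1l had 90.2 TPM in replicate 2 and 133, 133 and 136 TPM in the others (-0.51 ± 0.05), and Aldh1l2, at -0.54 ± 0.14, lost its call in DESeq2 (adjusted p = 0.0533). Of 4 cytosolic ones, Mthfd1 was called higher and 3 were not called, Shmt1 among them. Tyms, the other one-carbon enzyme called lower besides Gldc, at -0.16 ± 0.04, was placed in neither group. It lost its call in DESeq2 and without replicate 1. The split by compartment therefore covers only the genes placed. Shmt2 over Shmt1 stood at 2.47 in replicate 2 and 3.15, 3.01 and 3.16 in replicates 1, 3 and 4.

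Of 18 other amino acid transporters, 15 could be tested, and 3 were called lower and 0 higher, with the same counts at an unadjusted p of 0.05 and in DESeq2. Slc38a1, the most abundant, was not called at -0.06 ± 0.05, and Slc6a9, a glycine carrier, had the largest change called, at -0.50 ± 0.13.

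Markers of other cells were at low levels, apart from Eomes. The 5 B cell markers summed to 2.16 TPM in replicate 2 and 1.76 to 2.11 TPM in the others, and 0 of 5 reached 1 TPM in every library. The 5 myeloid markers summed to 18.1 TPM in replicate 2 and 16.7 to 18.4 TPM in the others. Of these, Cd68 and Adgre1 exceeded 1 TPM in every library, while Lyz2 had 0 counts throughout. The NK list summed to 61.8 TPM in replicate 2 and 6.56 to 8.65 TPM in the others. That sum was nearly all Eomes, called higher in replicate 2, a factor that T cells can also express, and Ncr1 had 0 counts in every library. Red cell markers summed to at most 0.748 TPM and stromal and epithelial ones to at most 5.47 TPM. Mitochondrially encoded genes took 0.770% to 0.914% of counts over the libraries. The part of the lower Th17 markers and of higher Eomes in the results for replicate 2 was not tested. In bulk RNA, fewer cells of a type and less RNA per cell cannot be told apart.

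The gamma subunit of eIF2 split the libraries differently. It is encoded on the X chromosome by Eif2s3x and, in mice, on the Y chromosome by Eif2s3y. Eif2s3x had 72.2 and 73.7 TPM in replicates 1 and 2, and 138 and 129 TPM in replicates 3 and 4. Eif2s3y had 60.5 and 77.9 TPM in replicates 1 and 2, and 0.343 and 0.386 TPM in replicates 3 and 4, where it had 15 and 18 counts. The sum of both was 133, 152, 138 and 129 TPM in replicates 1 to 4, a mean of 138 ± 9.82 TPM (SD, n = 4). Both genes were singled out after their values were seen. Cells of 1 animal would share their Y-linked transcripts, so replicates 1 and 2 and replicates 3 and 4 differ in source despite the common donor identifier. Whether the samples within each pair came from different animals is not given. The Y-linked transcript does not follow the line between replicate 2 and the other 3.

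**Figure D5:**
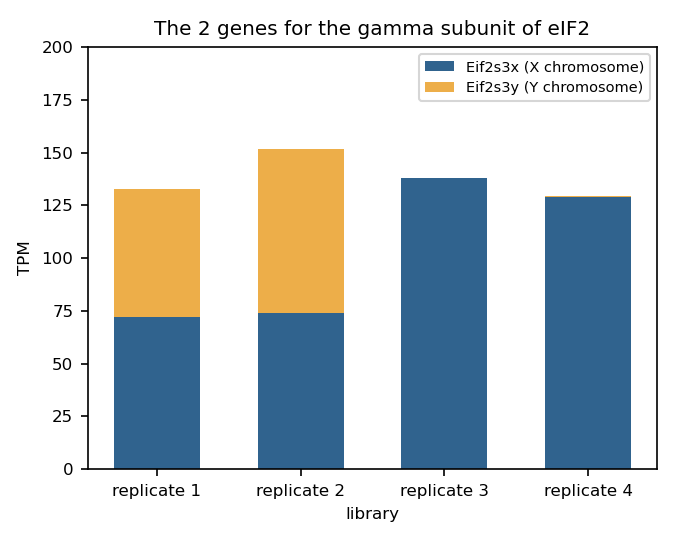
TPM of Eif2s3x (lower part of each bar) and Eif2s3y (upper part) in each library. Eif2s3y reaches 60.5 and 77.9 TPM in replicates 1 and 2 and is under 1 TPM in replicates 3 and 4, while the summed height stays between 129 and 152 TPM.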

How the data were processed

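RNA of mouse Th17 cells was sequenced in 4 libraries. The labels call the assay total RNA-seq, while the title of the linked library protocol names polyadenylated RNA. Per the file headers, the authors counted read pairs per gene with featureCounts 1.4.6-p4 on GENCODE M13, with strand option 2 and both ends required to map. The labels give build mm10, and the aligner version is not given in the sources used here. As for values, raw counts were deposited, with 1 table for each library that also lists the summed exon length of each gene. Symbols came from GENCODE vM21 by identifier, with 50376 of 50600 matched.

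TPM was derived from them by dividing each count by gene length and bringing every library to 1 total. Gene length is the summed exon length, so levels, ranks and ratios between genes depend on it. A gene entered the tests with 10 or more counts over all libraries together, which left 17337. Each library was compared with the other 3 by edgeR 4.0.16 (quasi-likelihood test, TMM scaling, Benjamini-Hochberg over all genes, threshold 0.05). The SE was taken as the size of the log2 change divided by the root of its F statistic. DESeq2 1.42.0, other scalings and filters, and leaving out each library were alternatives, and a robust prior was added after seeing the data. The steps were tested on simulated data. A count of 3 stood for 0.0795 to 0.0906 CPM.

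The members, gene lists and tests were chosen with earlier results of these data known. Values per library are given for called members, the 5 highest and 5 lowest, and both subunit pairs. Of other lists, the most abundant gene and the largest called changes are named, at most 3 each. Other genes named from those lists, and the folate grouping, were picked after their values were seen. Results that need particular genes are not reported here, though counts and lists include those genes. Promoter sequences are from RefSeq, build GRCm38.p6.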

Additional observations from a re-analysis of the deposited data

Results flagged for a closer look

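Within the 4 libraries, 75 genes with a level were examined for a library whose gap to its nearest neighbour exceeds Dixon's 95% critical value as a share of the range. The genes examined were the 43 described and only part of the pathway lists outside them. Chance flags about 1 in 20 groups, and here 22 of 75 were marked, with replicate 2 as the library apart in all of them. Replicate 2 stood apart in the same way in 910 of 8809 genes with a mean of at least 10 TPM (10.3%), and was the lowest library in 542 of these. Such marks thus also occurred outside the genes examined. Replicate 2 also lay well below the other libraries in pathway genes not examined, Xpot, Gpt2, Slc38a1 and Tyms among them. The share marked therefore holds for the genes examined and not for the lists as a whole. In 21 of the 22 marked genes replicate 2 was the lowest library, and in Cbs it was the highest. Of the 43 genes described, 8 were marked. Their gap over range was 0.933 for Atf4, 0.833 for Ddit3, 0.857 for Trib3, 0.84 for Shmt2, 0.846 for Aldh18a1, 0.889 for Slc3a2, 0.882 for Dars and 0.847 for Lars. Atf4 and Aldh18a1 were not called by edgeR, and their values in replicates 1, 3 and 4 lay close together. Among the pathway genes examined outside the 43, the ratio was 0.941 for Aimp1, 0.835 for Iars2, 0.85 for Eif2ak4, 0.864 for Ppp1r15a and 0.889 for Ppp1r15b. Among other ATF4 targets it was 0.958 for Nupr1, 0.959 for Vldlr, 0.884 for Cth, 0.838 for Cbs, 0.877 for Herpud1, 0.916 for Lonp1, 0.97 for Ero1l and 0.926 for Mthfd1l. For the transporter Slc36a4 it was 0.888.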

How the results depend on the processing

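Among the 43 genes and the pathway lists, no gene called in replicate 2 changed direction under any setting tried. Of the uncalled genes among the 43, 7 with values near 0 changed sign under at least 1 setting (Asns, Farsa, Gars, Iars, Sars, Slc7a11 and Slc7a5), so counts of negative values are approximate. No paired analysis was possible because the libraries form 1 group. The count of all genes called in replicates 1, 3 and 4 moved from 0 to 2, 15 and 3 with DESeq2, and to between 0 and 101, 0 and 102, and 0 and 38 when 1 library was left out, the highest value each time without replicate 2. With all libraries kept, replicate 2 was among those set against each of replicates 1, 3 and 4, so its distance entered the spread used. Its part in these counts was not tested. In replicate 2 the count of genes called was 3664, and 2843 to 4331 under other settings. Of the 12 genes called there among the 43, 11 were called under all 9 other settings, and Cars was lost under 2. Of the 31 not called, 9 were called lower under at least 1 setting: Atf4, Cebpb, Chac1, Phgdh, Slc7a1, Aars, Rars, Vars and Yars. The count of synthetases called lower ran from 6 to 9, the highest with scaling by library size alone. With 4 libraries and SEs near 0.05, small changes lie close to the threshold. A level of 1 TPM in every library was reached by 43 genes without replicate 4.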
